A study of Mus musculus with 31 samples.

Results

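The mitochondrial ribosomal protein genes were taken as the array probes annotated to a single gene whose symbol begins with Mrpl or Mrps and a number. This gave 72 probes of 72 genes among the 23040 features of the array (15095 genes in all with a tested single-gene probe), and all 72 were among the 21765 probes with a value on every array. By structures of mammalian mitoribosomes, 49 members belong to the large subunit and 22 to the small subunit. The last member, Mrps36, carries a ribosomal symbol but is now known as a subunit of the 2-oxoglutarate dehydrogenase complex. Mrps30 and Mrps18a carry small-subunit symbols and lie in the large subunit, where they were counted. Each member had 1 probe, so no second probe of a member could check what the first measured.

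Whole livers of 31 BxD/TyJ strains (BxD1 to BxD42, with gaps), which are recombinant inbred lines made by crossing C57BL/6J with DBA/2J mice, were each set against C57BL/6J liver on 1 two-colour glass array. For each strain, liver RNA of 3 males aged 8 weeks was pooled and labelled with Alexa Fluor 647. The reference RNA came from 9 C57BL/6J males of the same age, was labelled with Alexa Fluor 555 and was hybridised to all 31 arrays, and 20 ug of RNA went into each labelling. A spike-in mix is listed with the reference only, dyes were not exchanged, and no strain had a second array, so every spread below lies between single arrays of different strains and holds array error as well. Values are normalized log ratios, read as log2 of strain over reference, a direction and base that are likely but not stated, and a value of 0 is equal signal. A gene's dye effect, if any, adds to its mean over strains, the panel mean. In a pooled tissue, fewer cells of a type and less RNA per cell cannot be told apart. Values are ratios to liver, so whether markers of liver cells were present could not be checked.

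The mitoribosome translates the few proteins that mitochondrial DNA encodes, all of which are core subunits of the oxidative phosphorylation complexes. Its RNAs come from mitochondrial DNA, whereas all of its proteins are encoded in the nucleus, made in the cytosol and imported. Many of them have a counterpart in bacterial ribosomes, and others are found in mitoribosomes only. Liver is rich in mitochondria, and promoters of nuclear genes for mitochondrial proteins often hold sites for the factors GABPA (of the ETS family), NRF1 and YY1.

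Promoter sequences were looked at because the results on co-variation show 3 pairs of members, chosen for their high r. RefSeq promoter windows on GRCm38.p6, running 250 bases upstream to 50 bases downstream of the gene's start, were found for 64 of the 72 members (70 windows). The letters CCGGAAG, bound by ETS factors such as GABPA, were present on either strand in 32.9% of the member windows, against 8.86% of all 32851 windows and 13.0% of the windows of genes on the array. The NRF1 letters GCATGCG, which overlap their own reverse complement, were in 10.0% of member windows and in 3.58% of all windows and 5.19% of array windows. The YY1 letters GATGGCG were in 10.0% of member windows and in 3.49% of all windows and 4.87% of array windows. These are matches of letters only. The 250 upstream bases of the 3 pairs with the highest r without the 4 arrays described below, which rank 4, 5 and 2 in all 31 strains, follow, 5′ to 3′ on the gene's strand, with matches to any of these motifs in capitals. They are Mrpl39 (chr16:84735245-84735494, minus strand) with Mrpl28 (chr17:26123253-26123502, plus strand), Mrpl24 (chr3:87919294-87919543, plus strand) with Mrpl42 (chr10:95501950-95502199, minus strand), and Mrps17 (chr5:129715247-129715496, plus strand) with Mrpl36 (chr13:73330759-73331008, plus strand).
Mrpl39: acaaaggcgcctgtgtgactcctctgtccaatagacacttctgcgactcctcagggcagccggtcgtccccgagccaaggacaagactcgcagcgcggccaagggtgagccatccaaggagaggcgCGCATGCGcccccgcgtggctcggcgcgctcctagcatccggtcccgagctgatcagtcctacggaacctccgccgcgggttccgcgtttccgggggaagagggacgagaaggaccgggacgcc
Mrpl28: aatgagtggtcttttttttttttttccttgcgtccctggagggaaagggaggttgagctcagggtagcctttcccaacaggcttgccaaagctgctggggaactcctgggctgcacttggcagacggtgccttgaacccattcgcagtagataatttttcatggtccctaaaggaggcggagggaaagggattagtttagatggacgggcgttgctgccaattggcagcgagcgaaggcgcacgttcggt
Mrpl24: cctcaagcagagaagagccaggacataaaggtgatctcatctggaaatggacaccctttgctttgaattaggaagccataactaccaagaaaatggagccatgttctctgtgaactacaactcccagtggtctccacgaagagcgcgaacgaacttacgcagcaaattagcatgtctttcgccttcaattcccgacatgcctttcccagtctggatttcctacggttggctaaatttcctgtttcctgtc
Mrpl42: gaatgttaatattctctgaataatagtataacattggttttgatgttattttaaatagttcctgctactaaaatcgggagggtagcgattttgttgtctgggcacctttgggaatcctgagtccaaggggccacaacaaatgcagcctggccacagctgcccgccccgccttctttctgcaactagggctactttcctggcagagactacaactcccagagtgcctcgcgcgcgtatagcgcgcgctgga
Mrps17: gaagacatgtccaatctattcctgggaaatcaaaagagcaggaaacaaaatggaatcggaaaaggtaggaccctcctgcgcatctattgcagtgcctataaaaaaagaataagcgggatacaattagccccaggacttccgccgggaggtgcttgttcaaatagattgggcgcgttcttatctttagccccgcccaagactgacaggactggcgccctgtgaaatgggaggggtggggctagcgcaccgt
Mrpl36: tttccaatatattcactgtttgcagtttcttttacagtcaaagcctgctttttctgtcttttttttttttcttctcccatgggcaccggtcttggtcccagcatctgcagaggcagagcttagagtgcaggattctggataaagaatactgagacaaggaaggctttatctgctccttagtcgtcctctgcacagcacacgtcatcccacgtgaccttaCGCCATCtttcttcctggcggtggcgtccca
Mrpl39 had an NRF1 match on each strand, starting at bases -123 and -124 from the gene's start. Mrpl36 had a YY1 match on the other strand, starting at base -31. Mrpl42 had a YY1 match at base 30, downstream of the bases shown. Mrpl28, Mrpl24 and Mrps17 had no match in their windows, so no pair shared one of these motifs.

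Members stood slightly above the C57BL/6J reference more often than below it, if the ratio is strain over reference. Were it the other way round, the sign of every ratio below would turn and the members would stand below the reference more often than above it. In the panel mean, 35 of 72 members (48.6%) were higher and 16 (22.2%) were lower, and 21 did not pass the test (limma, Benjamini-Hochberg adjusted p under 0.05 over all 21765 probes). Over all probes tested, 37.4% were higher and 37.6% were lower, 75.0% in either direction, so a call alone is common on this array. The median panel mean was 0.09 on the log2 scale for the members, against 0.0013 for all probes, and 48 members (66.7%) had a mean above 0, against 50.2% of all probes. With a required mean of more than 0.2 in size, 19 members were higher and 6 lower, against 14.6% and 18.6% of all probes.

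The place of a probe bears on the lowest means. Probes whose number in the file is a multiple of 8 averaged over strains to a median of -0.58, and the others to one of 0.04. There were 5 members among them, Mrpl55, Mrpl30, Mrpl45, Mrpl1 and Mrpl12, and all 5 were called lower. After the median of the probes with the same remainder of their number on division by 8 was subtracted on each array, here called the place correction, 3 of them stayed lower and Mrpl1 and Mrpl12 were called higher. With this correction 34 members were higher and 17 lower, against 37.0% and 36.9% of all probes. The other 67 members gave 35 higher and 11 lower without it, against 41.4% and 31.4% of all probes outside the multiples of 8, and the median of their means was 0.10, against 0.04 for all single-gene probes outside the multiples of 8.

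In addition, 4 arrays, those of strains 23, 28, 40 and 42, were unlike the rest over all probes. The median r of an array with the others was 0.37, 0.33, 0.24 and 0.06 in strains 28, 42, 23 and 40, against 0.57 in strain 38 and 0.67 or more in the remaining 26 strains. The members showed the same: their profile in these 4 strains correlated at 0.17 to 0.40 with the members' mean over the other strains, against 0.75 to 0.93 in the other 27. Without these 4 arrays 40 members were higher and 19 lower, against 39.9% and 38.2% of all probes. Of the 51 calls, 50 kept their direction, only that of Mrps36 was lost, none turned and 9 more members were called. Under the place correction 45 calls kept their direction, 4 were lost, 2 turned and 4 were gained. Higher calls held for 30 members, and lower calls for 13, in the full data, without the 4 arrays, with the place correction and with both. The share of all probes whose calls held in the same way is not given here, so these counts are a description only. With both, 39.2% of all probes were higher and 37.7% lower, and 35 and 18 members.

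**Figure D1:**
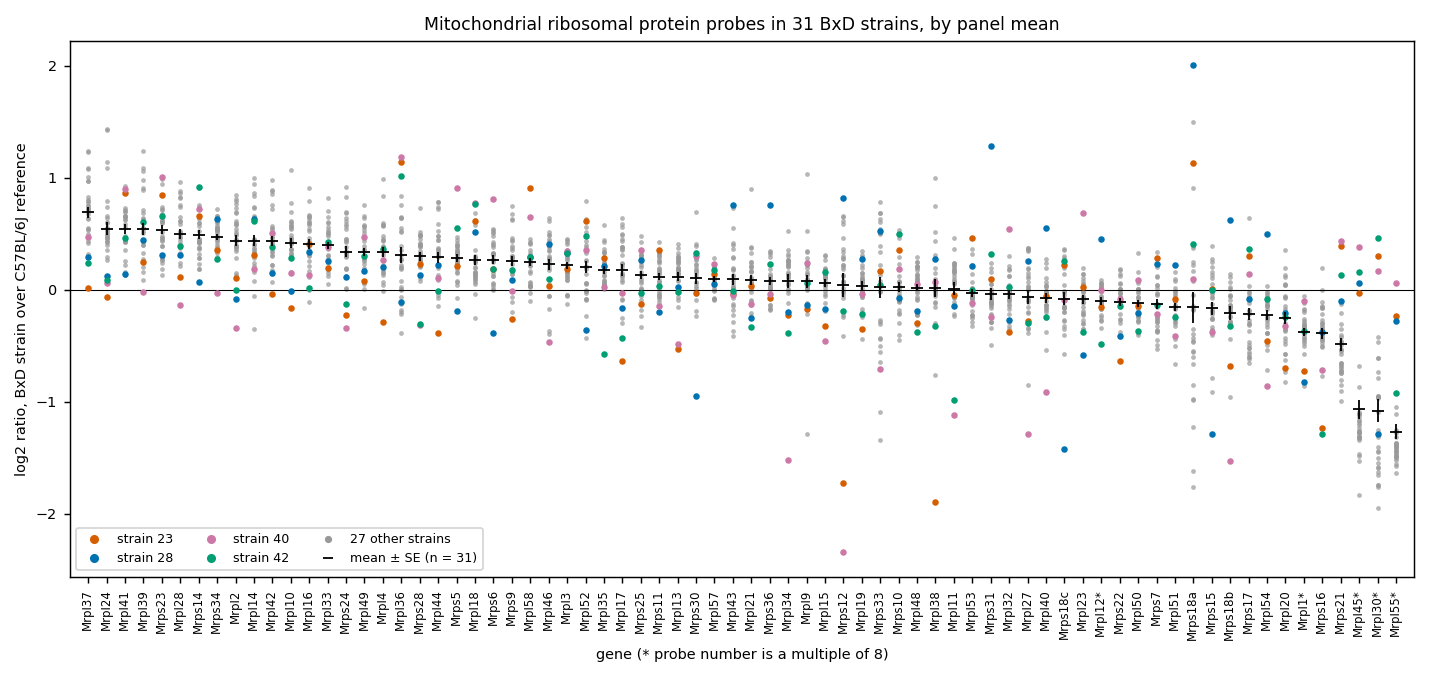
Log2 ratio of strain over reference (y axis) for the 72 members (x axis, ordered by panel mean), with a point for each of 31 strains and black marks for the mean ± SE. Most means lie between -0.5 and 0.5, the 3 lowest members carry an asterisk for a probe number that is a multiple of 8, and coloured points of strains 23, 28, 40 and 42 are often the extreme ones.

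Among large-subunit members, 24 of 49 were higher, 9 lower and 16 not called, against 37.4% of all probes higher and 37.6% lower. The median panel mean of these members was 0.10. Mrpl37, a mitochondria-specific protein, had the highest mean of all members. It was lowest at 0.02 in strain 23, had a median of 0.72 and was highest at 1.24 in strain 18, so all 31 strains lay above 0. Its mean of 0.69 ± 0.05 (limma SE, n = 31) is a 1.62-fold ratio, or 0.619 were the ratio turned (limma adjusted p = 2.3e-14). Without the 4 arrays it was 0.76.

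Mrpl24, the counterpart of a bacterial protein that begins assembly of the large subunit, ranged between -0.06 in strain 23 and 1.43 in strain 6 with a median of 0.50. It averaged 0.55 ± 0.06 (limma adjusted p = 4.8e-10) and was above 0 in 30 strains. Mrpl41, which is mitochondria-specific, ranged between 0.13 in strain 15 and 0.93 in strain 34, with a median of 0.59 and a mean of 0.55 ± 0.04 (limma adjusted p = 1.7e-13). Mrpl39, a mitochondria-specific protein related to threonyl-tRNA synthetases, ranged between -0.02 in strain 40 and 1.24 in strain 5, with a median of 0.53 and a mean of 0.54 ± 0.05 (limma adjusted p = 2.8e-11). All strains but strain 40 lay above 0 for this gene. Mrpl28, which has a bacterial counterpart, was also below 0 in strain 40 only, at -0.13. Its median was 0.48, its highest value 0.96 in strain 22 and its mean 0.50 ± 0.04 (limma adjusted p = 2.3e-12). Mrpl33, likewise with a bacterial counterpart, was above 0 in all 31 strains at 0.05 to 0.82. Lying above 0 in every strain was seen for 5 members, namely Mrpl37, Mrpl41, Mrps23, Mrps14 and Mrpl33, against 3.6% of all probes.

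Members named for their place at known catalytic or factor-binding sites averaged between -0.10 and 0.44. Mrpl3, whose bacterial counterpart reaches towards the peptidyl transferase centre, averaged 0.22 ± 0.03 (limma adjusted p = 4.9e-08), between -0.12 in strain 36 and 0.45 in strain 31, with a median of 0.23. Mrpl2, the counterpart of another protein at that centre, averaged 0.44 ± 0.05 and ranged between -0.34 in strain 40 and 0.85 in strain 5. Of the stalk and its base, where translation factors bind, Mrpl10 averaged 0.42 ± 0.04 and was higher, while Mrpl11 averaged 0.01 ± 0.06 and did not pass the test (limma adjusted p = 0.87). Mrpl12, the stalk protein that Mrpl10 holds, averaged -0.10 ± 0.03 and was called lower, but its probe number is a multiple of 8 and its mean with the place correction was 0.48, called higher. Mrpl58, a peptidyl-tRNA hydrolase built into the large subunit, averaged 0.25 ± 0.04 and was higher in the panel mean (limma adjusted p = 3.6e-07).

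The lowest means of all members belonged to Mrpl55, Mrpl30 and Mrpl45, each with a probe number that is a multiple of 8. Mrpl55 was lowest at -1.63 in strain 8, had a median of -1.40 and was highest at 0.06 in strain 40, the only strain above 0. Its mean was -1.26 ± 0.07 (limma adjusted p = 1.8e-17), and -0.69 with the place correction. Mrpl30 ranged between -1.95 in strain 29 and 0.46 in strain 42, with a median of -1.25, and its mean of -1.08 ± 0.10 became -0.50 with the correction. Mrpl45, which in human cells helps to bind the mitoribosome to the inner membrane, ranged between -1.83 in strain 27 and 0.38 in strain 40, with a median of -1.23, and its mean of -1.07 ± 0.09 became -0.49. Strains 23, 40 and 42 were the 3 strains above 0 for Mrpl30, and strains 28, 40 and 42 those for Mrpl45. The values of these genes thus lie apart in the arrays that stood apart. In strain 40 this was not particular to them. The 2527 probes at multiples of 8 outside the members, each centred on its median over strains, averaged highest in strain 40, at 0.70. Mrpl1, at -0.86 in strain 22 to -0.05 in strain 20 with a median of -0.36, was the only member below 0 in all strains, against 4.48% of all probes. Its mean of -0.37 ± 0.03 turned to 0.20 with the place correction and was then called higher. Of members at other places, Mrpl20, whose bacterial counterpart acts early in assembly, averaged -0.25 ± 0.05 (limma adjusted p = 4.3e-05) and Mrpl54, which is mitochondria-specific, averaged -0.22 ± 0.04 (limma adjusted p = 3.0e-05).

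Among small-subunit members, 10 of 22 were higher, 7 lower and 5 not called, against 37.4% of all probes higher and 37.6% lower. The median panel mean of these members was 0.04. Mrps23, which is mitochondria-specific, ranged between 0.13 in strain 21 and 1.01 in strain 40, with a median of 0.52 and a mean of 0.54 ± 0.04 (limma adjusted p = 1.6e-13). Mrps14, with a bacterial counterpart, ranged between 0.07 in strain 28 and 0.92 in strain 42, with a median of 0.45 and a mean of 0.49 ± 0.04 (limma adjusted p = 1.0e-13). Mrps34, a mitochondria-specific protein in which human mutations cause Leigh syndrome, was -0.03 in strain 40, had a median of 0.51 and reached 0.73 in strain 1. All 30 other strains lay above 0, and its mean was 0.47 ± 0.03 (limma adjusted p = 5.1e-16).

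On the low side, Mrps21, with a bacterial counterpart, was lowest at -0.99 in strain 13, had a median of -0.54 and was highest at 0.44 in strain 40. Strains 23, 40 and 42 were the only ones above 0, and the mean was -0.48 ± 0.06 (limma adjusted p = 6.4e-09), or -0.59 without the 4 arrays. Mrps16, with a bacterial counterpart, ranged between -1.28 in strain 42 and 0.20 in strain 14, with a median of -0.36 and a mean of -0.39 ± 0.05 (limma adjusted p = 3.9e-08). The 3 paralogues Mrps18a, Mrps18b and Mrps18c averaged -0.16 ± 0.14, -0.21 ± 0.06 and -0.08 ± 0.06, of which only Mrps18b passed the test. Mrps36, outside the ribosome, averaged 0.08 ± 0.04 (limma adjusted p = 0.033), a call lost without any 1 of 5 strains (13, 18, 19, 28 or 32).

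Members with a bacterial counterpart and mitochondria-specific members were counted apart. Their calls are to be read against the 37.4% of all probes called higher and the 37.6% called lower. Of 43 with a counterpart 21 were higher and 10 lower, with a median panel mean of 0.09. Of 26 mitochondria-specific members 13 were higher and 5 lower, with a median of 0.10. With the place correction 23 of the 43 were higher, with a median of 0.11, and 11 of the 26, with a median of 0.03. Without the 4 arrays the medians were 0.17 and 0.11. The difference between these classes, and that between the subunits, was not tested.

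Spread over strains was that of an ordinary probe. The median SD was 0.246 for the members, against 0.239 for all probes, and without the 4 arrays 0.205 for the members against 0.20 for all probes. The 4 arrays are 12.9% of the strains and held a median of 35.3% of a member's variation, against 30.5% for all probes. For 54 members (75%) the lowest or the highest value lay in 1 of these strains, against 69.5% of all probes. Strain 40 was lowest for 15 members (20.8%) and highest for 10 (13.9%), against 13.8% and 12.4% of all probes. Strain 23 was lowest for 12 (16.7%) and highest for 2 (2.78%), against 9.77% and 8.10% of all probes. Strain 28 was lowest for 8 (11.1%) and highest for 10 (13.9%), against 12.8% and 10.2% of all probes.

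The most variable member was Mrps18a, with an SD of 0.83. It was lowest at -1.76 in strain 14, had a median of -0.18 and was highest at 2.01 in strain 28, and its SD stayed at 0.71 without the 4 arrays. Mrps12, part of the decoding centre, had an SD of 0.63, and values of -2.34 in strain 40 and -1.72 in strain 23 stood far below a median of 0.13 and a highest value of 0.82 in strain 28. Without the 4 arrays its SD was 0.27. Mrps33, which is mitochondria-specific, had an SD of 0.55 and 0.57 without the 4 arrays, so its spread lay in other strains: -1.34 in strain 16 and -1.09 in strain 13, with a median of 0.08 and a highest value of 0.79 in strain 24. Mrpl38, which is related to phosphatidylethanolamine-binding proteins, had an SD of 0.47, with -1.89 in strain 23, a median of 0.02 and 1.00 in strain 27. Mrpl55 had an SD of 0.40, and 0.13 without the 4 arrays. The steadiest members were Mrpl57, which is mitochondria-specific and had an SD of 0.10 between -0.09 in strain 11 and 0.29 in strain 9, then Mrps34 (SD 0.15), Mrpl3 (SD 0.15) and Mrps11 (SD 0.17).

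Single members barely went up and down together across strains. Over the 2556 pairs of members the mean Pearson r was 0.011 and the median 0.015, against a mean of 0.0007 for pairs of all probes, and without the 4 arrays it was 0.0088 against 0.0004. The mean was 0.013 within the large subunit and -0.006 within the small subunit. By the same measure, proteins of oxidative phosphorylation (70 probes) had a mean r of 0.076 and cytosolic ribosomal proteins (71 probes) one of 0.25. These r values share the same 31 arrays and are given as a description. Pairs above 0.5 made up 4.85% of member pairs against 3.47% of all pairs, and pairs below -0.5 made up 4.77% against 3.17%. Without the 4 arrays these shares were 2.07% against 1.63% and 1.64% against 1.5%.

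**Figure D2:**
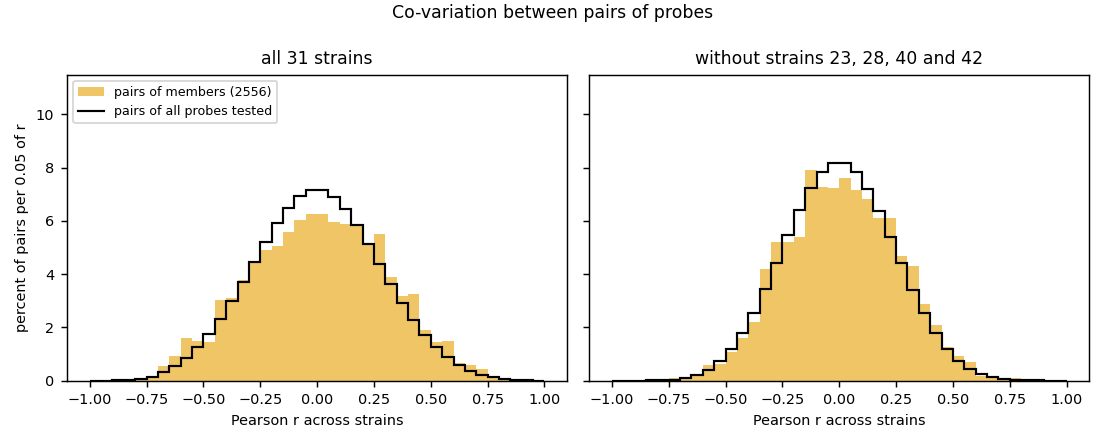
Percent of pairs (y axis) in each 0.05 of Pearson r across strains (x axis) for the 2556 member pairs (filled) and all pairs of 21765 probes (line), in all 31 strains (left) and without strains 23, 28, 40 and 42 (right). The member pairs centre near 0, at a mean r of 0.011 and 0.0088, with slightly wider flanks than all pairs in the left panel.

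Probes with adjacent numbers correlated somewhat, whatever their gene, a check made after the values were seen. The mean r was 0.098 between a member and an adjacent probe (141 pairs), and 0.10 over all 21408 adjacent pairs of probes, against 0.0085 at a distance of 12 numbers and 0.10 at 24. What the numbers mean on the slide is not given in the sources used here.

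An r above 0.75 was reached by 6 pairs in all 31 strains, and 3 of these were also above it without the 4 arrays. In the first, Mrpl39 and Mrpl28 had r = 0.80 (Spearman rho 0.78), and 0.77 without the 4 arrays. Both were lowest in strain 40, and both had strains 5 and 22 as their highest 2. In the second, Mrpl24 and the mitochondria-specific Mrpl42 had r = 0.78 (rho 0.74) and 0.81 without the 4 arrays. Both were lowest in strain 23 and highest in strain 6. In the third, Mrps17 and Mrpl36, each with a bacterial counterpart, had r = 0.81 (rho 0.81) and 0.80 without the 4 arrays. Their probe numbers lie 3582, 1772 and 6271 apart. Without the 2 strains farthest from the median of the first gene, r was 0.74, 0.68 and 0.80 for the 3 pairs. As shown above, the genes of a pair did not share the ETS, NRF1 or YY1 letters, and no other promoter motif was looked for. The pairs were chosen for their r, so no test is given.

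**Figure D3:**
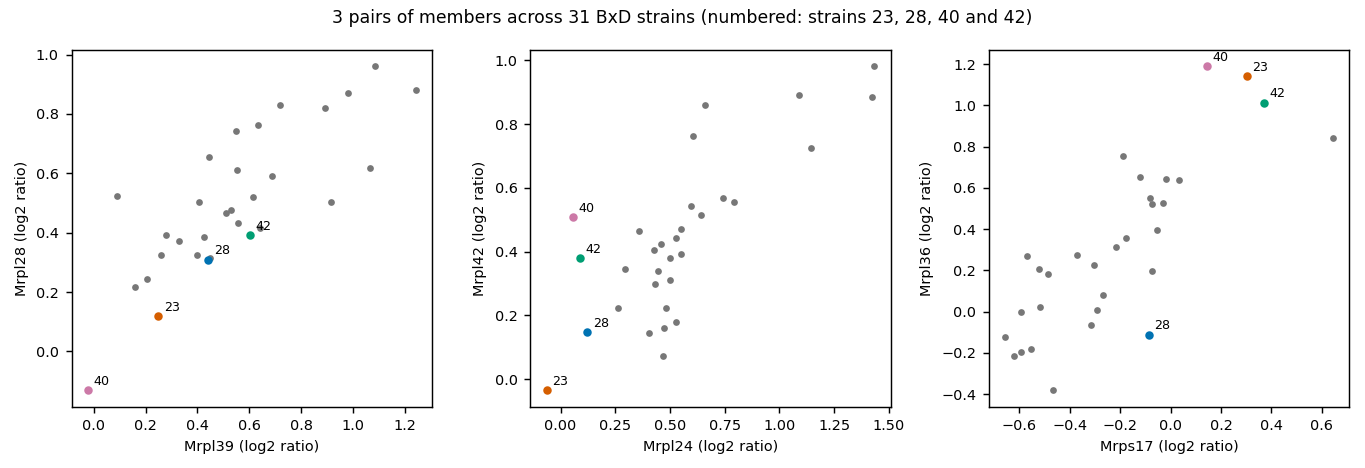
Log2 ratios of 3 pairs of members, a point for each of 31 strains, with strains 23, 28, 40 and 42 coloured and numbered. The points rise together in each panel, with r of 0.80, 0.78 and 0.81 from left to right, and stay aligned without the numbered strains.

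The highest r of all, 0.82 between Mrpl55 and Mrpl45, both at multiples of 8, was -0.11 without the 4 arrays. That between Mrpl36 and Mrpl30 was 0.80, and 0.64 without them, and that between Mrps28 and Mrpl34 was 0.76, and 0.45 without them. The lowest, -0.77 between Mrpl45 and Mrpl34, was -0.24 without them. On the other hand Mrpl36 and Mrpl16, both with bacterial counterparts, had r = -0.69 and -0.73 without the 4 arrays. Members with an NRF1 match (7) had a mean pairwise r of 0.14, and 0.060 without the 4 arrays, against -0.004 and 0.005 for the 57 without. Members with a YY1 match (7) had one of -0.047, and -0.045 without the 4 arrays, against -0.0001 and 0.007 for the 57 without. Members with an ETS match (23) had one of -0.010, and -0.002 without the 4 arrays, against 0.007 and 0.014 for the 41 without. These differences by motif were not tested. Mrps9, Mrpl15 and Mrpl28 had the highest mean r with the other members, at 0.096, 0.095 and 0.094, and Mrpl45, Mrpl55 and Mrps10 the lowest, at -0.11, -0.11 and -0.09.

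When members were averaged, strains did differ slightly. The strain score, which is the mean over the 72 members after each was centred on its median over strains, had an SD of 0.041 on the log2 scale, and 0.035 without the 4 arrays. It was lowest in strains 40, 23 and 13, at -0.095, -0.085 and -0.084, and highest in strain 33 at 0.069, where 47 of 72 members were above their own median. Scores made the same way had an SD of 0.096 for oxidative phosphorylation and 0.18 for cytosolic ribosomal proteins. Across the 31 strains, the large-subunit and small-subunit scores had r = 0.50 (rho 0.41), 0.37 without strains 40 and 13 and 0.41 without the 4 arrays.

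The mitoribosome score went with the oxidative phosphorylation score at r = 0.83 (rho 0.77) over 31 strains, 0.77 without strains 40 and 23, and 0.76 without the 4 arrays. Strain 40 was lowest in both, and strain 33 was among the highest in both. Scores of other lists of mitochondrial gene expression had lower r with it. The r was 0.15 (0.12 without the 4 arrays) for the list of constituents under other names, which also holds the insertase Oxa1l. It was -0.21 (0.12) for assembly and rRNA modification, 0.12 (-0.12) for translation factors and 0.41 (0.10) for aminoacyl-tRNA synthetases. For mitochondrial DNA expression it was 0.13 (0.16), for protein import 0.16 (0.67) and for regulators of biogenesis -0.31 (-0.06). With the cytosolic ribosomal protein score r was 0.65 (rho 0.65) and 0.67 without the 4 arrays, and the oxidative phosphorylation and cytosolic scores had r = 0.68 with each other. These scores come from the same arrays, and with the mean of 16570 other single-gene probes the mitoribosome score had r = 0.53, or 0.18 without the 4 arrays. Some, but not all, marker lists of cell types moved with the score too. The Kupffer cell and macrophage list (8 probes, score -0.60 in strain 40 to 0.25 in strain 39) had r = 0.62, and 0.29 without the 4 arrays, and the erythroid list (3 probes, -0.43 in strain 21 to 0.55 in strain 15) had r = 0.53, and 0.68 without them. For the hepatocyte list (9 probes) r was 0.33, and -0.12 without them. The other 4 marker lists lay between -0.40 (adipose tissue) and 0.02 (exocrine pancreas). Without the 4 arrays these lists lay between -0.29 (B and T cells) and -0.12 (exocrine pancreas). The part of the marked cell types in these values was not tested.

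**Figure D4:**
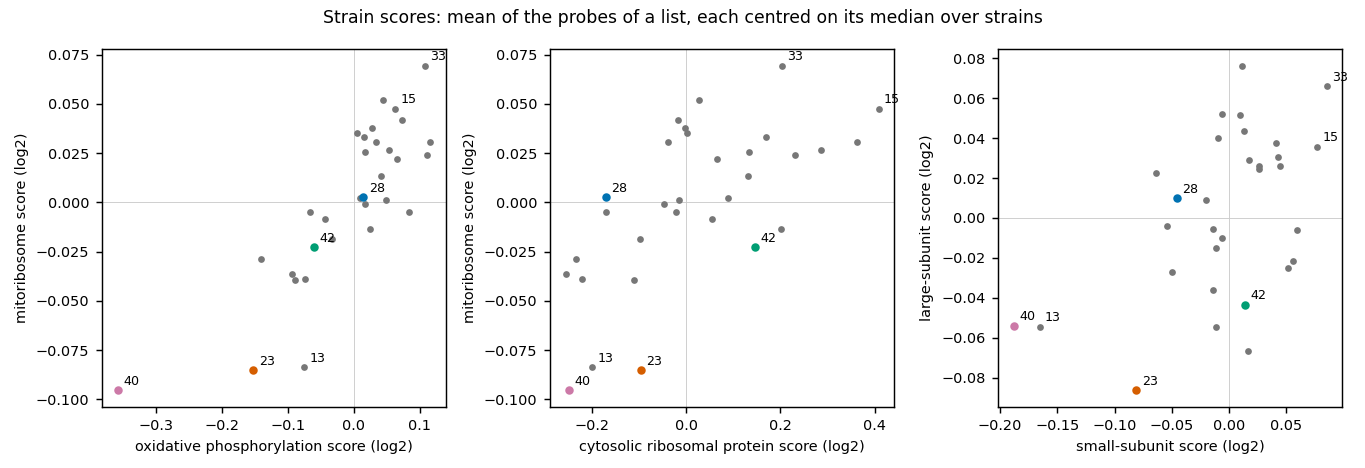
Strain scores (mean of centred log2 ratios) of the mitoribosome against oxidative phosphorylation (left) and cytosolic ribosomal proteins (middle), and of the large against the small subunit (right), a point for each of 31 strains, with strains 23, 28, 40 and 42 coloured. Strain 40 lies at the low end of both axes in the left panel, and r falls from left to right, at 0.83, 0.65 and 0.50.

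Slopes of each member on scores of other genes rested largely on strain 40 in the case of oxidative phosphorylation. On that score, 13 members had a positive slope and 4 a negative one (limma, adjusted p under 0.05), against 7.85% and 6.03% of all probes. The positive ones included Mrpl28 (limma adjusted p = 0.00066), Mrps12 (0.00067), Mrpl34 (0.00092) and Mrpl39 (0.0018), and the negative ones were Mrpl23, Mrps21, Mrpl45 and Mrpl55. Without strain 40 the calls were 2, against 0.758% of all probes positive and 0.0551% negative, and without the 4 arrays the call of Mrpl39 was the only one, against 1.14% of all probes positive and 0.266% negative. The r of Mrps12 with the score was 0.69, and 0.13 without the 4 arrays, and that of Mrpl34 0.69 and 0.09. For Mrpl39 it was 0.67 and 0.62.

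On the cytosolic ribosomal protein score, 5 members had a positive slope and 1 a negative one, against 3.17% and 1.22% of all probes. Mrpl39 and Mrpl28 had the highest r with that score, at 0.86 and 0.79 (limma adjusted p = 1.1e-06 and 0.00010), and 0.86 and 0.80 without the 4 arrays. Mrpl52, Mrps18c and Mrps15 were the other positive ones, and Mrpl16 was the negative one at r = -0.53. Without the 4 arrays, 9 members were positive and 4 negative, against 6.4% and 6.12% of all probes.

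Outside the members, the single-gene probes most like the mitoribosome score by Pearson r over 31 strains, of 14707 with a usable name, were those of Chkb, a choline and ethanolamine kinase (0.77), Higd1b (0.77), Slc6a12, a betaine and GABA transporter (0.77), Rdh16, a retinol dehydrogenase (0.74), Slc1a5, a glutamine transporter (0.74), Pyroxd2 (0.74), Bet1l (0.74) and Rpl11, a cytosolic ribosomal protein (0.74). The probes of Rdh16 and Chkb have the adjacent numbers 10630 and 10631, and that of Bet1l is 10641. Adjacent numbers correlated somewhat whatever their gene, so these need not be separate matches. The r of the 8 genes lay between 0.58 and 0.72 without the 4 arrays, where none of the 8 was among the 8 most alike. Those were led by Srbd1 (0.79) and Rps14 (0.76), which were named after their values were seen. In all 31 strains the least alike were Nr2c1 (-0.72), Mboat2 (-0.72), Ighv6-6 (-0.71) and Il1f8 (-0.68), all 4 with probe numbers that are multiples of 8, and without the 4 arrays other genes took these places. Among the members, 9 had an r above 0.5 with their own score, with Mrpl28 at 0.70 and Mrps9 at 0.69 highest, and 23 had an r below 0. That score holds the members' own values, and the genes above are the extremes of 14707 probes. The share of all probes with an r above 0.5 is not given here, so these counts are a description only.

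Other genes of mitochondrial gene expression are given by their calls, to be read against the 37.4% of all probes called higher and 37.6% called lower. Of 4 genes listed as mitoribosome constituents under other names, Oxa1l was higher at 0.26 ± 0.04 and Chchd1 was lower at -0.83 ± 0.06. Oxa1l is the inner-membrane insertase that meets the tunnel exit, rather than a ribosomal protein. The Chchd1 probe was at a multiple of 8, and its mean was -0.26 with the place correction. Assembly and rRNA modification factors (23 probes) gave 10 higher and 8 lower, led by the GTPase Mtg2 at 0.64 ± 0.05 and by Ddx20 at -0.56 ± 0.05. Ddx20 is an RNA helicase best known from the SMN complex, and its place in this list is doubtful. Translation factors (12 probes) gave 7 higher and 5 that did not pass the test, the higher ones including Mtif3, a mitochondrial initiation factor, at 0.23 ± 0.06, and Taco1, an activator of cytochrome c oxidase translation, at 0.19 ± 0.03. Mitochondrial aminoacyl-tRNA synthetases (11 probes) gave 6 higher and 4 lower, with the seryl enzyme Sars2 at 0.42 ± 0.04. Genes of mitochondrial DNA expression (14 probes) gave 5 higher and 7 lower. There Tfb2m, a transcription factor of mitochondrial DNA, was at 0.47 ± 0.06, and Tfam, which packs that DNA, was at -0.42 ± 0.04. Protein import (35 probes) gave 15 higher and 13 lower, and its 4 lowest, Hspa9, Tomm40, Tomm7 and Grpel1, were at multiples of 8. Of 8 probes of regulators of mitochondrial biogenesis 2 were higher and 4 lower, among them Gabpa at -0.18 ± 0.03 and Esrra, a nuclear receptor, at -0.62 ± 0.06. For comparison, oxidative phosphorylation gave 42 higher and 13 lower of 70, and cytosolic ribosomal proteins 40 higher and 11 lower of 71.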

How the data were processed

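Pooled liver RNA of each of 31 BxD strains was hybridised with the C57BL/6J pool to a 2-colour array. The values the authors deposited, read here as log2 ratios, are normalized, and the submitters' processing notes name R 2.0.0 and limma. Neither the background correction and within-array steps nor the log base and direction are given in the sources. The deposited values share 1 distribution on all arrays (median -0.0015, SD 0.51, sorted values differing by at most 0.00026), so a shift of all genes in a strain cannot be seen. Signal over background is unknown without intensities, and precision is limited by the 31 arrays. Of 23040 features 1275 were empty on all arrays. Of the 21765 tested, 16642 had 1 gene in the platform annotation, 134 several and 4989 none. Names were updated by gene ID from RefSeq (GRCm38.p6) for 15964.

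A limma fit (version 3.58.1, R 4.3.3, lmFit and eBayes, two-sided) set the panel mean against 0, which leaves out the reference's own spread. Scores of 2 other lists entered as covariates in further fits. P-values set a panel mean or a slope against the spread between single arrays of different strains, which holds array error as well. No test was made over lists, scores or correlations. The self-test ran on simulated data. The members, the lists, the 4 arrays that stood apart and the place correction were chosen with earlier results of these data known. Members named are the 8 highest and 8 lowest called means, the 8 largest and 4 smallest SDs, the 6 highest and 4 lowest mean r with other members, and a call that changed without the 4 arrays. Also named are up to 4 genes of a list by size of mean, and the 8 most and 4 least like the score. Other members were named after their values were seen, for their role, subunit, pair, motif or association. A planned comparison of probes of the same member could not be run, as each had 1 probe.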

Additional observations from a re-analysis of the deposited data

How the results depend on the processing

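Counts of called members were within 1.5 times of 51 under each alternative but the required mean of more than 0.2, which asks for more and gave 25. Leaving out 1 strain gave 50 to 55. The median panel mean of 0.09 was 0.13 without the 4 arrays and 0.058 with the place correction (0.084 to 0.098 without 1 strain). The mean pairwise r of 0.011 was 0.021 without multiples of 8 (0.0077 to 0.012 without 1 strain). The r between the subunit scores was 0.36 with the place correction and without the 4 arrays (0.45 to 0.55 without 1 strain). That with the oxidative phosphorylation score was 0.76 without the 4 arrays, 0.75 with the place correction as well, 0.89 without multiples of 8 and 0.77 as Spearman rho (0.81 to 0.86 without 1 strain). That with the cytosolic score was 0.61 to 0.68 without 1 strain. Members associated with the oxidative phosphorylation score numbered 17, but 1 without the 4 arrays, with or without the place correction, and 2 (without strain 40) to 19 without 1 strain. Members associated with the cytosolic score numbered 6, but 13 without the 4 arrays, 11 with the place correction as well and 3 without multiples of 8. Without 1 strain they numbered 3 (without strain 12, 22 or 36) to 10 (without strain 40). Over all probes, 689 were positive and 266 negative in the full data, and 1394 and 1332 without the 4 arrays. The counts over all probes were 1141 and 1074 with the place correction as well, 636 and 165 without multiples of 8, and 893 and 579 without strain 40. Panel means that turned sign were those of Mrpl1 (0.20 with the place correction, 0.29 without the 4 arrays as well), Mrps12 (-0.050 with the correction), Mrpl38 (-0.0045 with it) and Mrps10 (-0.0083 without the 4 arrays, -0.035 with both), and, among members outside the naming rule, Mrpl12 (0.48 with the correction). Of these, Mrpl1 and Mrpl12 passed the test in the full data. The cause was not tested. No paired analysis was possible because all arrays form 1 group.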
